A study of Mus musculus with 3 samples.

Results

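The genes described here are 32 genes of glycolysis and of the response to low oxygen, taken by their symbols from 32284 gene symbols counted in single cells of the mouse mandibular condyle. All 32 were found, in 33 feature rows, because Aldoa stands under a pair of identifiers that were summed. The condyle is the cartilage-covered jaw side of the temporomandibular joint. The mice were wild-type C57BL6 animals, taken as embryos at day 16.5 (E16.5), as newborns (P0) and as adults of 13 weeks (13w), and no treatment is recorded. Condyles of 7 to 20 mice per age were pooled and digested with collagenase and dispase, cells stained by Calcein but not DAPI were sorted as live, and the pool of each age gave 1 droplet library, so there are no replicate animals. The study asks which skeletal progenitors the condyle holds and how its zones are laid out. Here the genes are compared between the stages and between cells with much and little Col9a1, a cartilage collagen gene, and among the former between cells with little and much Col10a1, the collagen gene of hypertrophic chondrocytes.

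Glycolysis splits glucose into pyruvate, which is reduced to lactate and exported or passed to mitochondria. Cartilage has no blood vessels, and its cells are known for living on glycolysis at low oxygen. In low oxygen the prolyl hydroxylases of the Egln family no longer mark the alpha subunits of hypoxia-inducible factor (HIF) for degradation, and HIF then binds a short core motif near its target genes, which include glucose transporters, glycolytic enzymes, Vegfa, Bnip3 and carbonic anhydrase genes. HIF1A is known to be needed for survival of growth plate chondrocytes.

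Promoter windows are shown for 7 genes picked from the class comparisons below. Aldoc, Bnip3, Ldha, Pgk1 and Car12 were higher in Col9a1-high cells, Slc16a3 was lower and Adm higher in the Col10a1-high ones. Aldoc, Car12 and Adm passed a filter on low values only through the class where they were high, so their differences are descriptions. Each window runs from 250 bases before to 50 bases after a RefSeq gene start (GRCm38.p6), 5′ to 3′ along the gene. Capitals mark ACGTG or GCGTG, the cores of the HIF motif, on either strand (read as CACGT or CACGC on the other), and overlapping matches are merged. The Aldoc window is at chr11:78322823-78323122, plus strand. The Bnip3 window is at chr7:138909457-138909756, minus strand. The Ldha window is at chr7:46845554-46845853, plus strand. The Pgk1 window is at chrX:106186850-106187149, plus strand. That of Slc16a3 is at chr11:120948817-120949116, plus strand, that of Adm at chr7:110627407-110627706, plus strand and that of Car12 at chr9:66713436-66713735, plus strand.
Aldoc: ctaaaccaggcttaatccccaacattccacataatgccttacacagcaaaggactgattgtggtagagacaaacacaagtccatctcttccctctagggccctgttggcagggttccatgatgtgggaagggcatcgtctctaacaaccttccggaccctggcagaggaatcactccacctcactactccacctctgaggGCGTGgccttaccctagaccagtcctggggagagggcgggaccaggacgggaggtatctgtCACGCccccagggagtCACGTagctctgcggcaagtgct
Bnip3: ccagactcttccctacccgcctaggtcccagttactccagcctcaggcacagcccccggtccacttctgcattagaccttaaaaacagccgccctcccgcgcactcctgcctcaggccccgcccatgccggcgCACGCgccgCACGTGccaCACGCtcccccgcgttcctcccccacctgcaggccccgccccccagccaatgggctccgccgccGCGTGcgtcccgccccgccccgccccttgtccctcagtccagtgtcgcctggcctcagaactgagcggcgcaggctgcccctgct
Ldha: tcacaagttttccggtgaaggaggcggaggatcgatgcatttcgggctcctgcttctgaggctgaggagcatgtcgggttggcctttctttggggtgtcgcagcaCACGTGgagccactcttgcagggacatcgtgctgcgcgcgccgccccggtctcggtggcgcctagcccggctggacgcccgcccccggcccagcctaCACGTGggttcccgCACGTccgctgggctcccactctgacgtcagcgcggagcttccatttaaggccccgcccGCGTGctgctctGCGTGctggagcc
Pgk1: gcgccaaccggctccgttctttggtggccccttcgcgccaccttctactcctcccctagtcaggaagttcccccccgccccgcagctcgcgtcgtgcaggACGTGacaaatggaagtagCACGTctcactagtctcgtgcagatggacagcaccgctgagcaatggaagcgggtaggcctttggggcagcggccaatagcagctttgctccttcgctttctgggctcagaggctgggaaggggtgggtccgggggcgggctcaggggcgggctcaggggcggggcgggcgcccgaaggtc
Slc16a3: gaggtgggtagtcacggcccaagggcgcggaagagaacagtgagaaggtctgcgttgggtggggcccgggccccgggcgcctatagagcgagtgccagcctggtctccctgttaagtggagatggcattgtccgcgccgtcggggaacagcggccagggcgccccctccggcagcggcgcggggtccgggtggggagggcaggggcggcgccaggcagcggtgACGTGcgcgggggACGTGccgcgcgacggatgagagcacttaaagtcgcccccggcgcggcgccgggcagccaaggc
Adm: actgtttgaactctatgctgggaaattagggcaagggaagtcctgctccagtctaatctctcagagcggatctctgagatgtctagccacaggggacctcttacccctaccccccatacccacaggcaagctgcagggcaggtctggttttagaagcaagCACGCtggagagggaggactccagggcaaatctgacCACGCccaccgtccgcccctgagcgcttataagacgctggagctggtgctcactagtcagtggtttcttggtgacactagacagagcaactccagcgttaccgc
Car12: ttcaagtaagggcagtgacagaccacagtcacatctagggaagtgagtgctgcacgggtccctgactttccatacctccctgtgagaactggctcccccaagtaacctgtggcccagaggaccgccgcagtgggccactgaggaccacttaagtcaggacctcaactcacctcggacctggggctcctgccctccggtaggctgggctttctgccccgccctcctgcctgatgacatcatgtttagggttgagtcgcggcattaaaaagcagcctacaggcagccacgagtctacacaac

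The Ldha window held 7 matches, Bnip3 5, Aldoc 3, and Pgk1, Slc16a3 and Adm 2 each, while the Car12 window held 0. A CACGTG, which reads ACGTG on either strand, counts as 2 matches, so Ldha and Bnip3 hold fewer separate sites than matches. RefSeq windows were found for 31 of the 32 genes, 45 windows in all, and the entry of Ndrg1 was missing. At least 1 match was in 36 of the 45 windows (80%), against 43.8% of all 32851 windows and 65.0% of the 7951 windows of genes with a mean level of at least 10 CPM (counts scaled to 1000000 UMIs in all). ACGTG, with or without GCGTG, was in 26 windows (57.8%), against 19.6% and 27.2%. The mean GC content of the 45 windows was 61.9%, close to the 61.6% of the expressed genes and above the 53.8% of all windows. A match is a description of the letters and no measured binding site. For Aldoc and Ldha, which have more than 1 window, the upstream one is shown. The window not shown held fewer matches, 1 for Aldoc and 2 for Ldha.

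A cell was used if it had 500 or more genes and no more than 10% mitochondrial UMIs (unique molecular identifiers, 1 per captured RNA molecule). This left 4562, 3999 and 8028 cells from the E16.5, P0 and 13w libraries, with medians of 17401.5, 17954 and 11010 UMIs per cell. Libraries shared 10 to 15 cell barcodes pairwise. Cells with at least 3 Col9a1 UMIs per 10000 are called Col9a1-high, and were divided at 10 Col10a1 UMIs per 10000 into Col10a1-low and Col10a1-high. Col9a1-low cells numbered 3548, 2253 and 6407, Col9a1-high Col10a1-low cells 765, 1189 and 1434 and Col9a1-high Col10a1-high cells 249, 557 and 187 at the 3 stages in that order, the order used for every triple of values below. These classes are ranges and not types: 275, 192 and 518 cells had between 2 and 4.5 Col9a1 UMIs per 10000. Col2a1, the main cartilage collagen gene, was at 145, 290.4 and 3189 CPM in Col9a1-low cells, at 7030.0, 15044 and 41134 in Col9a1-high Col10a1-low cells and at 19502, 27393 and 46894 in Col10a1-high cells, so both Col9a1-high classes were above Col9a1-low cells in a cartilage marker that the limits did not use. Other markers separated the classes less well at 13w. Sox9, a cartilage transcription factor gene, was then at 659 CPM in Col9a1-low and 522 CPM in Col10a1-high cells, but higher in the latter at E16.5 and P0. Mmp13, a hypertrophic marker, was at 467 CPM in Col9a1-low cells at 13w, against 92.3 and 150 in the Col9a1-high classes. Bglap, a bone gene, was at 114 CPM in Col9a1-low and 335 CPM in Col9a1-high Col10a1-low cells at 13w. Median depth differed, at 14937, 11771 and 9547 UMIs in Col9a1-low cells, 38424, 36590 and 22413 in Col9a1-high Col10a1-low cells and 46514, 35993 and 36183 in Col10a1-high cells. Summed markers of leukocytes (8 genes) were at 247, 49.2 and 302 CPM in Col9a1-low cells and at 8.0, 2.47 and 30.5 in Col9a1-high Col10a1-low cells, and endothelial markers (8 genes) at 73.0, 109.9 and 21.0 and 19.6, 14.7 and 2.90. The mural list (8 genes) did not separate cells here, because Ndufa4l2 alone, itself a known HIF target, was at 1655 CPM in Col9a1-high Col10a1-low cells at 13w. At E16.5 62.0 of the 765 Col9a1-high Col10a1-low cells held at least 3 neural or glial markers.

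Levels are CPM of the UMIs summed over all cells of a class and library; they are not per length, since the 3′ assay tags each RNA molecule once. In all kept cells together the 32 genes held 1.16%, 1.02% and 0.735% of all UMIs at E16.5, P0 and 13w. The 14 enzyme genes from hexokinase to pyruvate kinase, the glycolytic chain, held 1.18%, 0.901% and 0.548% of the UMIs of Col9a1-high Col10a1-low cells. In Col10a1-high cells they held 0.968%, 0.612% and 0.465%, and in Col9a1-low cells 0.512%, 0.405% and 0.410%. The chain thus took the largest share in Col9a1-high Col10a1-low cells in each library, a smaller one in Col10a1-high cells and the smallest in Col9a1-low cells, and the spread between classes was narrowest at 13w. Gapdh made up 28.4% of the chain's UMIs in Col9a1-high Col10a1-low cells at E16.5, so the sum is weighted to a few abundant genes.

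**Figure D1:**
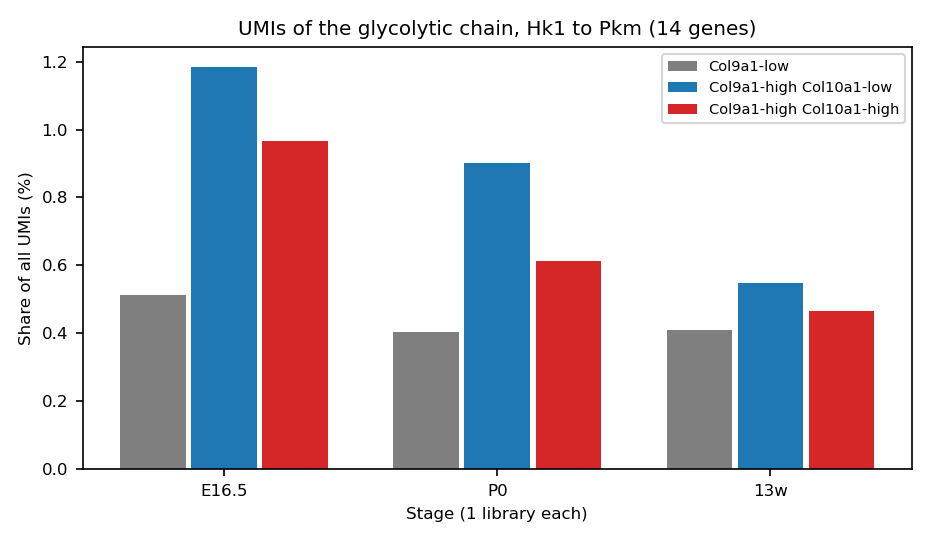
Share of all UMIs (percent, from 0) taken by the 14 enzyme genes of the glycolytic chain, by stage (1 library each) and cell class (colours); bars are single values with no replicate. The Col9a1-high Col10a1-low bar is the tallest at each stage, at 1.18%, 0.901% and 0.548% at E16.5, P0 and 13w.

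Most of the 32 genes, but not all of the HIF targets, had higher levels in Col9a1-high Col10a1-low cells than in Col9a1-low cells of the same library. Of the 32 genes, 23 were higher in all 3 libraries (71.9%, against 18.3% of the 7759 genes tested) and 2, Vegfa and Ddit4, were lower in all 3 (6.25%, against 44.2%). The classes were tested with edgeR's quasi-likelihood test on sums per library and class, with the library as a block and Benjamini-Hochberg adjustment over all genes tested, and a call needed an adjusted p under 0.05. The 3 libraries of different age serve as the replicates, so a difference that changes with age adds to the spread, and 2 residual degrees of freedom remain. Of the 29 genes that passed the filter of a mean of 10 CPM, 13 were called higher (44.8%) and 0 lower, where 6.35% of all genes tested were called higher and 15.8% lower. Their median log2 difference was 0.84, against -0.14 over all genes tested. Without adjustment, 21 were higher and 2 lower at p under 0.05, and DESeq2 called 21 and 2. Aldoc, Car9 and Car12 passed the filter through the Col9a1-high sums alone, and without them 11 of 26 were called higher. Pfkm, Egln3 and Adm had too few UMIs for this test.

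**Figure D2:**
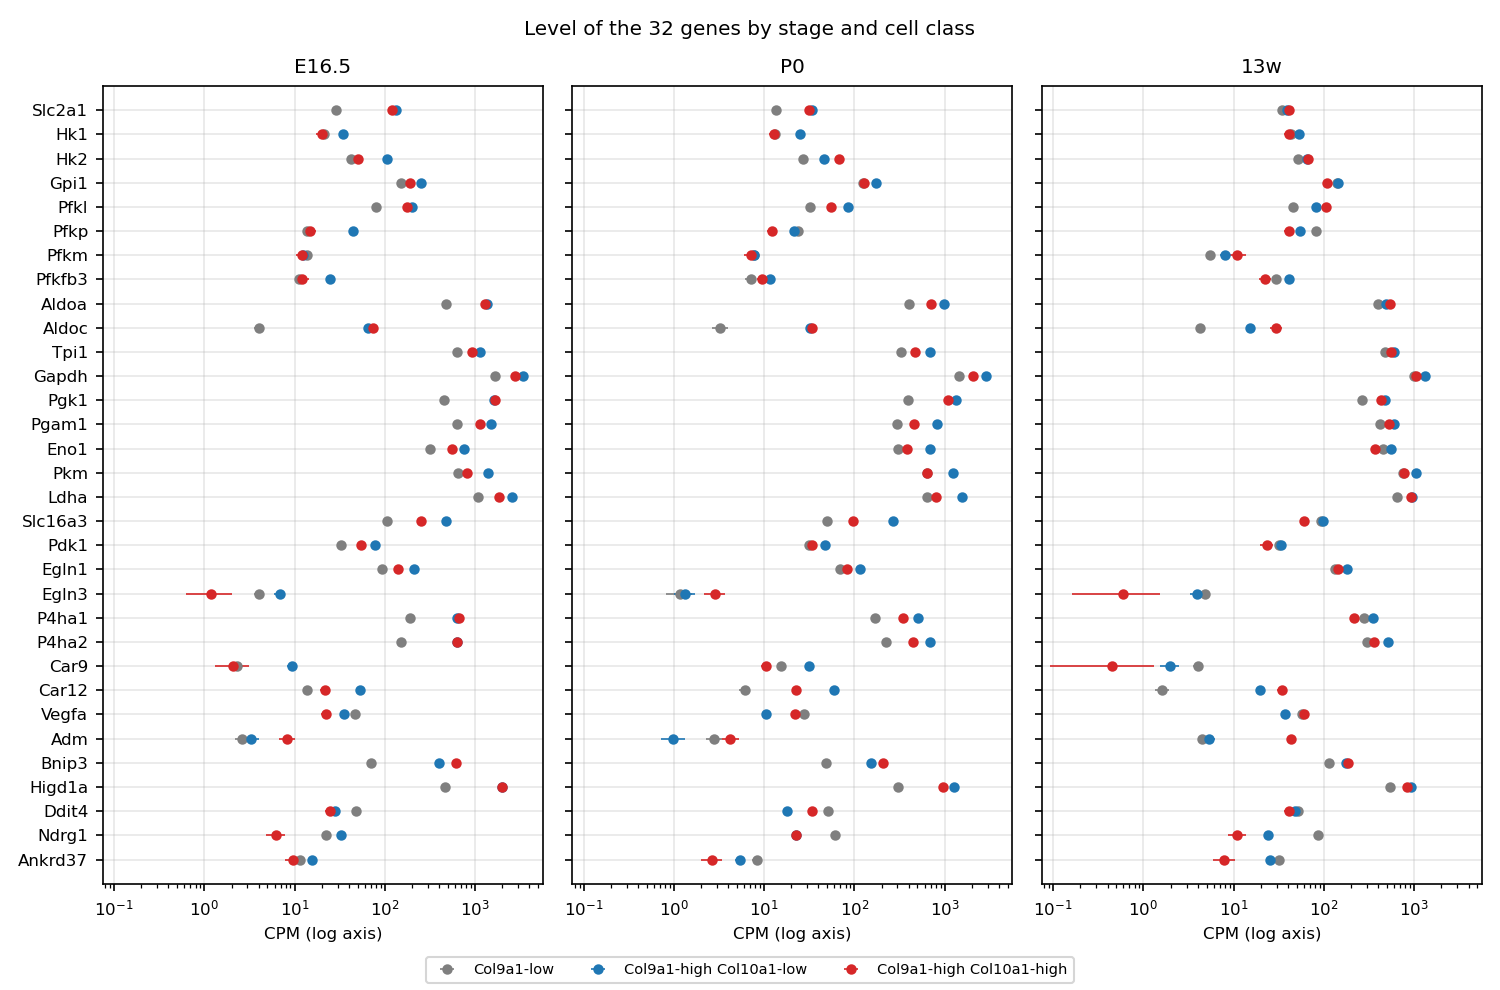
Level of each of the 32 genes (CPM, log axis) at E16.5, P0 and 13w in the 3 cell classes (colours); bars are exact 95% Poisson intervals for counting error only. The Aldoc points lie far apart, with 4.04, 3.25 and 4.27 CPM in Col9a1-low cells and 65.5, 32.2 and 15.1 in Col9a1-high Col10a1-low cells.

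The 3 genes of glucose uptake and its first phosphorylation had higher levels in Col9a1-high Col10a1-low cells of each library, but no gene of this step passed the test. Slc2a1, the glucose transporter GLUT1, was at 29.1, 13.5 and 33.9 CPM in Col9a1-low cells and at 132, 33.7 and 39.3 in Col9a1-high Col10a1-low cells, a log2 difference of 1.24 ± 0.41 (SE, n = 3 libraries) with an edgeR adjusted p of 0.0887. Its distance between the classes was wide at E16.5 and slight at 13w, and the ranges over the stages overlapped. The hexokinases Hk1 and Hk2, which trap glucose in the cell as glucose phosphate, were at 21.1, 13.3 and 42.8 and 42.5, 26.7 and 51.3 CPM in Col9a1-low cells and at 34.4, 25.1 and 52.6 and 107, 45.7 and 64.8 in Col9a1-high Col10a1-low cells. Their log2 differences were 0.64 ± 0.17 and 0.81 ± 0.23 with edgeR adjusted p of 0.0572 and 0.0636.

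In the upper part of glycolysis, from glucose phosphate to triose phosphates, 3 of 7 tested genes were called higher, Pfkl, Pfkfb3 and Aldoc. Aldoc, an aldolase, was at 4.04, 3.25 and 4.27 CPM in Col9a1-low cells and at 65.5, 32.2 and 15.1 in Col9a1-high Col10a1-low cells. Its classes did not overlap, with a log2 difference of 3.06 ± 0.48 (edgeR adjusted p = 0.0226). It passed the filter through the Col9a1-high sums alone, and its Col9a1-low level was under 10 CPM in each library, so the size of the difference is a description. The more abundant aldolase gene Aldoa, at 479.9, 400.0 and 393 and 1362, 995 and 489 CPM, had a log2 difference of 1.05 ± 0.27 and an edgeR adjusted p of 0.0550, just outside the threshold. Of the phosphofructokinase subunits, which carry the committed step, Pfkl was at 79.9, 32.2 and 45.5 CPM in Col9a1-low cells and at 200.2, 85.0 and 81.0 in Col9a1-high Col10a1-low cells, with a log2 difference of 1.19 ± 0.17 (edgeR adjusted p = 0.0199). Pfkp went both ways: its log2 ratios between the classes were 1.69, -0.13 and -0.59 in the 3 libraries. Pfkm, the muscle subunit gene, was near the limit of 10 CPM in each class, at 13.7, 7.79 and 5.51 CPM in Col9a1-low cells and 12.5, 7.69 and 8.02 in Col9a1-high Col10a1-low cells. Pfkfb3, whose product activates phosphofructokinase, was at 11.3, 7.08 and 29.7 CPM in Col9a1-low and 24.8, 11.6 and 41.2 in Col9a1-high Col10a1-low cells. It had a log2 difference of 0.77 ± 0.18 (edgeR adjusted p = 0.0434) and was higher in all 3 libraries. The triose phosphate isomerase gene Tpi1 and the glucose phosphate isomerase gene Gpi1 were higher in all 3 libraries too, with log2 differences of 0.76 ± 0.19 and 0.42 ± 0.18 and edgeR adjusted p of 0.0503 and 0.154.

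The lower part of glycolysis, which yields ATP and pyruvate, was higher in all 3 libraries for each of its 5 genes, and Gapdh, Pgk1, Pgam1 and Pkm were called. Pgk1, phosphoglycerate kinase, was at 449, 396 and 263 CPM in Col9a1-low cells and at 1630.4, 1342 and 473 in Col9a1-high Col10a1-low cells, a log2 difference of 1.49 ± 0.24 (edgeR adjusted p = 0.0239). Its lowest Col9a1-high value, at 13w, was only just above its highest Col9a1-low value, at E16.5. Gapdh, the most abundant of the 32 genes, was at 1661, 1456 and 983 and 3364, 2845 and 1316 CPM in the same classes, so its ranges over the stages overlapped although each library had the same direction. Pkm, pyruvate kinase, was at 643, 639 and 756 CPM in Col9a1-low and 1383, 1249.6 and 1036 in Col9a1-high Col10a1-low cells, with no overlap. Log2 differences were 0.80 ± 0.16 for Gapdh, 1.08 ± 0.22 for phosphoglycerate mutase (Pgam1) and 0.84 ± 0.17 for Pkm, with edgeR adjusted p of 0.0315, 0.0360 and 0.0337. Enolase (Eno1) had 0.92 ± 0.23 and an edgeR adjusted p of 0.0519. Many of these enzyme genes have processed pseudogenes, and the sources used here do not say how reads that fit both were assigned.

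Among genes that decide the fate of pyruvate, Ldha, the lactate dehydrogenase subunit that favours lactate, was at 1079, 635 and 647 CPM in Col9a1-low cells and at 2587, 1559 and 949 in Col9a1-high Col10a1-low cells (log2 difference 1.04 ± 0.19, edgeR adjusted p = 0.0287). Slc16a3, the lactate exporter MCT4, was at 107, 49.8 and 92.8 and 478, 269.8 and 97.4 CPM. The exporter was thus well above Col9a1-low cells at E16.5 and P0 and level with them at 13w, with log2 ratios of 2.17, 2.44 and 0.07, and it did not pass the test (edgeR adjusted p = 0.0952). Pdk1, a kinase that holds pyruvate back from mitochondria, had log2 ratios of 1.25, 0.62 and 0.06 and an edgeR adjusted p of 0.132.

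Egln1, P4ha2 and Car12, genes of oxygen sensing, collagen modification and acid balance, were called higher too. Egln1, which encodes the main HIF prolyl hydroxylase and is itself induced by HIF, was at 93.0, 69.0 and 132 CPM in Col9a1-low cells and at 211, 115 and 181 in Col9a1-high Col10a1-low cells (log2 difference 0.79 ± 0.19, edgeR adjusted p = 0.0471). P4ha2, a subunit of the collagen prolyl hydroxylase that stabilises the collagen helix, was at 150.1, 225 and 303 and 623, 683 and 513 CPM, with no overlap and a log2 difference of 1.47 ± 0.28 (edgeR adjusted p = 0.0312). Egln3, a further HIF prolyl hydroxylase gene, was at 4.01, 1.16 and 4.76 and 6.87, 1.32 and 3.94 CPM, too low for the test. The other collagen hydroxylase gene, P4ha1, had 1.24 ± 0.33 and an edgeR adjusted p of 0.0570. Car12, a membrane carbonic anhydrase that handles acid outside the cell, was at 13.8, 6.11 and 1.61 CPM in Col9a1-low cells and at 53.6, 59.9 and 19.4 in Col9a1-high Col10a1-low cells (log2 difference 2.93 ± 0.38, edgeR adjusted p = 0.0165), and it too passed the filter through the Col9a1-high sums alone. Unlike the glycolytic chain, Car12 had its widest ratio at 13w. Car9, the related enzyme best known as a hypoxia marker, had log2 ratios of 2.04, 1.05 and -1.03, higher at E16.5 and P0 and lower at 13w, where it was at 4.04 and 1.97 CPM.

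HIF targets outside metabolism differed among themselves in direction. Bnip3, a receptor for the removal of mitochondria, was at 70.1, 48.1 and 113 CPM in Col9a1-low cells and at 402, 153 and 174 in Col9a1-high Col10a1-low cells (log2 difference 1.61 ± 0.40, edgeR adjusted p = 0.0498). Higd1a, which encodes a protein of the inner mitochondrial membrane, was at 466, 305 and 546 and 1972, 1263 and 916 CPM (log2 difference 1.63 ± 0.32, edgeR adjusted p = 0.0317), and neither gene's classes overlapped. Vegfa, the growth factor that draws in blood vessels, was instead at 46.3, 27.8 and 57.4 CPM in Col9a1-low cells and at 34.9, 10.5 and 37.3 in Col9a1-high Col10a1-low cells, a log2 difference of -0.80 ± 0.23 that missed the threshold (edgeR adjusted p = 0.0677). Ddit4, which restrains mTORC1 under stress, had -0.80 ± 0.29 and an edgeR adjusted p of 0.109. Ndrg1, a stress response gene, had log2 ratios of 0.56, -1.42 and -1.85, and Ankrd37, an ankyrin repeat gene induced by HIF, had 0.47, -0.62 and -0.35. Neither kept 1 direction over the 3 libraries.

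**Figure D3:**
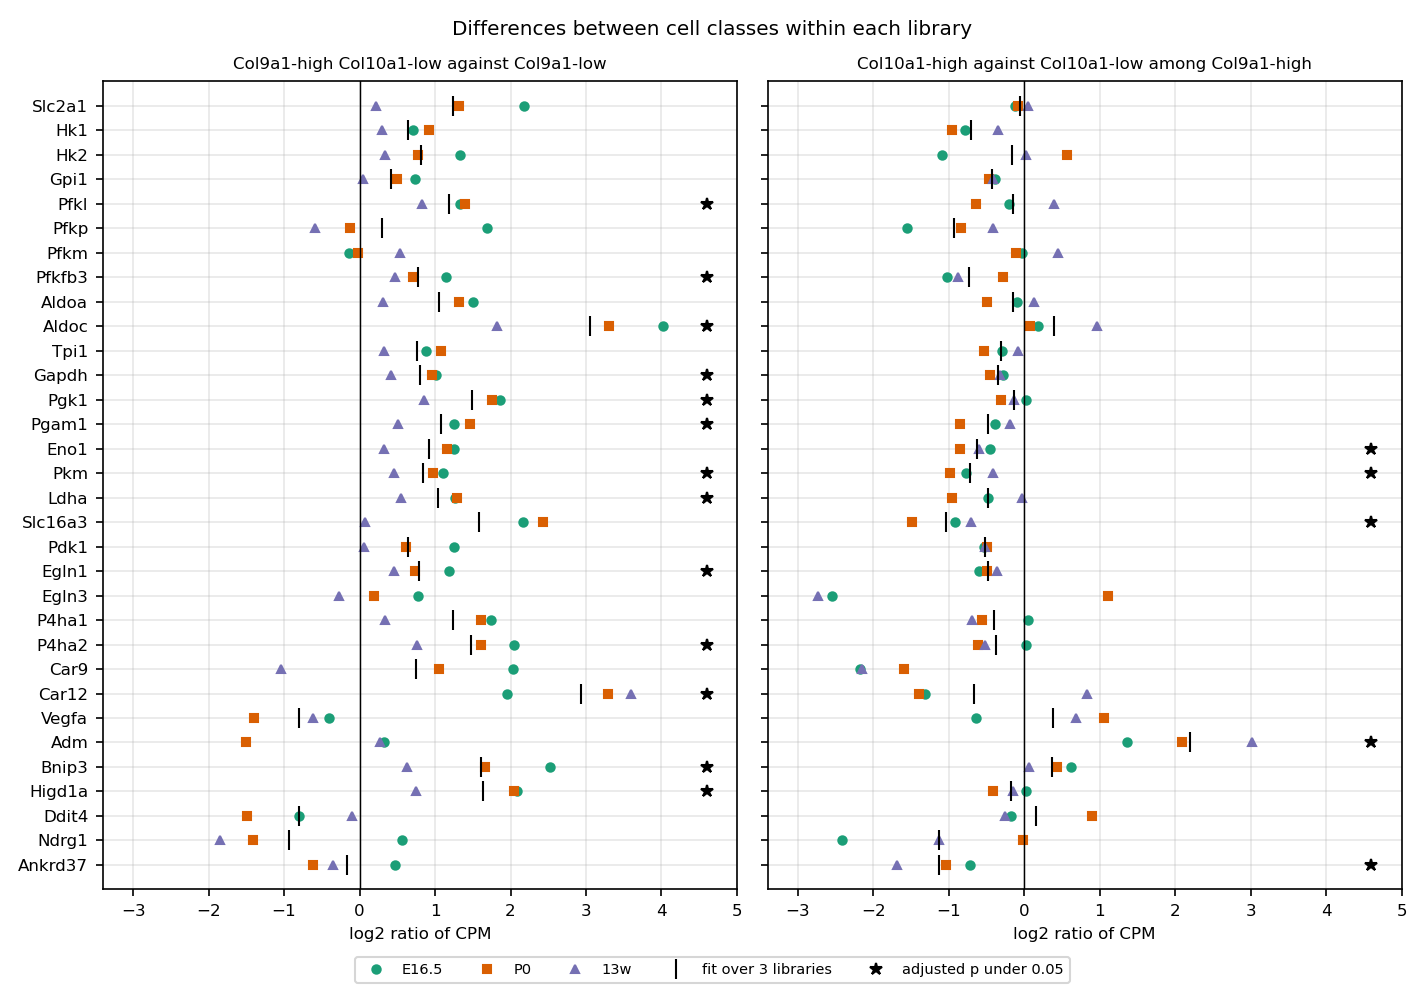
Log2 ratio of CPM between cell classes for the 32 genes in the E16.5, P0 and 13w libraries (symbols), with the edgeR estimate (bar) and a star where the adjusted p was under 0.05; Col9a1-high Col10a1-low against Col9a1-low on the left, Col10a1-high against Col10a1-low among Col9a1-high cells on the right. On the left 23 genes lie above 0 in all 3 libraries, and on the right 16 lie below 0 in all 3.

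The differences between these classes were smaller in the adult. The median log2 ratio over the 32 genes was 1.26, 1.01 and 0.33 in the E16.5, P0 and 13w libraries, against -0.08, -0.06 and -0.27 over all genes tested. At least 2-fold higher were 22 genes at E16.5 and 16 at P0, but at 13w only 2, Aldoc and Car12. Over all genes tested 8.0%, 9.47% and 3.39% were at least 2-fold higher, so that share was lowest at 13w too. For 26 of the 32 genes, 13 of the 14 in the glycolytic chain among them, the ratio was lowest at 13w, and with 1 library per stage this change of the ratio could not be tested. The median over all genes tested was lowest at 13w too, and the share of all genes with their lowest ratio there was not counted. The count of 26 is therefore a description and no trait particular to these genes. The Col9a1-low class itself held more RNA of cartilage genes at 13w. Its Col10a1 was at 12.4, 54.6 and 379 CPM and its Acan, the aggrecan gene, at 150, 522 and 1095 CPM. The part of this in the smaller ratios was not tested. The count of 13 calls depends on the libraries: it was 24 without 13w, 0 without P0 and 2 without E16.5, each with 1 residual degree of freedom. With TMM scaling 19 genes were called higher, and higher calls made up 48.7% of all calls over all genes in place of 28.7%. TMM moved the median log2 difference of all genes from -0.14 to -0.04 here and from -0.29 to -0.04 in Col10a1-high against Col9a1-low cells. Depth, cycling and other cell types also moved with the classes. With every cell thinned to 3000 UMIs the count was 15. Cells with a UMI of Mki67 or Top2a, a pair of cell cycle genes, made up 50.9%, 33.1% and 13.4% of Col9a1-low cells and 45.4%, 29.9% and 16.3% of Col9a1-high Col10a1-low cells. These shares are unthinned and so raised in the deeper Col9a1-high cells. Summed, the pair was at 549, 396 and 244 CPM in Col9a1-low and at 228, 95.2 and 120 CPM in Col9a1-high Col10a1-low cells. With the cells holding such a UMI left out, the count was 10. Without cells holding at least 3 markers of a non-skeletal list it was 11. The mural list, which did not separate cells here, marked 255 of the 630 cells so removed at E16.5, 218 of 294 at P0 and 72 of 507 at 13w. Skeletal cells may therefore be among those removed.

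Among Col9a1-high cells, Pkm, Eno1, Slc16a3 and Ankrd37 were called lower in those with much Col10a1. Of the 5 genes of the lower part of glycolysis, 2 were thus called lower and 4 were lower in all 3 libraries, with edgeR adjusted p of 0.0893 for Gapdh, 0.104 for Pgam1 and 0.506 for Pgk1. Of the 32 genes, 16 were lower in Col10a1-high cells in all 3 libraries (50%, against 40.0% of the genes tested). Higher in all 3 were 3, Aldoc, Bnip3 and Adm (9.4%, against 14.2%). In the test of Col10a1-high against Col10a1-low cells (edgeR, as above) 4 of 29 genes were called lower (13.8%) and 1 higher (3.45%), where 6.84% of all genes tested were called lower and 3.44% higher. The median log2 difference was -0.40, against -0.14 over all genes tested. Pkm was at 1383, 1249.6 and 1036 CPM in Col10a1-low and at 808, 633 and 779 in Col10a1-high cells (log2 difference -0.72 ± 0.15, edgeR adjusted p = 0.0354), with no overlap. Eno1 was at 757, 681 and 558 and 555, 378 and 367 CPM (log2 difference -0.63 ± 0.14, edgeR adjusted p = 0.0422). Slc16a3 was at 478, 269.8 and 97.4 and 252, 95.9 and 60.0 CPM (log2 difference -1.04 ± 0.19, edgeR adjusted p = 0.0266). Its levels overlapped between the classes, because the E16.5 value in Col10a1-high cells was above the 13w value in Col10a1-low cells. Ankrd37 was at 15.7, 5.43 and 25.2 and 9.59, 2.65 and 7.85 CPM (log2 difference -1.13 ± 0.25, edgeR adjusted p = 0.0377), and it passed the filter on low values through its Col10a1-low sums alone.

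Adm, the gene of the vessel-relaxing peptide adrenomedullin, had a higher level in Col10a1-high cells of each library. It was at 3.25, 0.988 and 5.39 CPM in Col10a1-low and at 8.32, 4.21 and 43.5 CPM in Col10a1-high cells (log2 difference 2.19 ± 0.34, edgeR adjusted p = 0.0190), and it passed the filter of a mean of 10 CPM through the 13w Col10a1-high value alone, so its call is a description and no support. Without Adm and Ankrd37, 0 of 27 genes were called higher by edgeR and 3 lower; over all 29 genes, 1 was higher without adjustment and 1 by DESeq2. At 13w 27 of the 8028 kept cells held at least 3 endothelial markers, and 0 of these were among the 187 Col10a1-high cells. With so few such cells this 0 cannot tell where the Adm RNA came from, which was not tested. Adm was under the filter and not tested after thinning to 3000 UMIs, with a Col10a1 limit of 5 per 10000, with a minimum of 30 CPM and without 13w, and the count of genes called higher was then 0. In the 15 alternatives that tested it, its log2 difference was 2.16 to 2.63 and it was called in 14. Adm was left out wherever it fell under the filter, so this count too is a description and no support. Lower calls numbered 10 without 13w, 0 without P0 and 6 without E16.5, and 2 with TMM scaling, Slc16a3 and Ankrd37, where edgeR gave adjusted p of 0.0945 for Eno1 and 0.0787 for Pkm. TMM moved higher calls from 33.5% to 57.7% of all calls.

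Against Col9a1-low cells, Col10a1-high cells had 6 of 29 genes called higher (20.7%), Pfkl, Aldoa, Aldoc, Pgk1, Bnip3 and Higd1a, and 1 lower (3.45%), Ndrg1, where 7.49% of all genes tested were called higher and 23.4% lower. This comparison shares its Col9a1-low cells with the first, and its median log2 difference was 0.54, against -0.29 over all genes tested. Aldoc, Car12, Adm and Ankrd37 passed the filter through 1 class alone, and without them 5 of 25 were called higher and 1 lower. Aldoc was at 74.2, 34.0 and 29.5 CPM in Col10a1-high cells, and its call is not counted as support for that reason. Bnip3 was at 618, 206 and 183 CPM, above its level in the other classes of each library (log2 difference 1.99 ± 0.50, edgeR adjusted p = 0.0329). Ndrg1 was at 22.3, 60.3 and 86.5 CPM in Col9a1-low and at 6.15, 22.4 and 11.0 CPM in Col10a1-high cells, with overlap between the P0 Col10a1-high and the E16.5 Col9a1-low values (log2 difference -2.07 ± 0.35, edgeR adjusted p = 0.0118). Pkm and Hk1 had log2 differences of 0.12 ± 0.17 and -0.06 ± 0.19, with edgeR adjusted p of 0.604 and 0.819. With TMM scaling the counts were 12 higher and 1 lower, and higher calls made up 47.8% of all calls in place of 24.3%. Higher calls numbered 15 without 13w, 2 without P0 and 5 without E16.5. Cells with a Mki67 or Top2a UMI were fewer in Col10a1-high cells, at 19.7%, 22.1% and 8.02%; without such cells the counts here were 4 higher and 2 lower.

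Levels also differed over finer ranges of Col10a1, taken from the same Col9a1-high cells. Col9a1-high cells were placed in ranges of 0, above 0 to under 10, 10 to under 100, and 100 or over Col10a1 UMIs per 10000, and the last range was used at P0 alone (183 cells), since E16.5 and 13w held 43 and 24 cells there. Among genes with a mean of 10 CPM over the ranges, the level was lower at every step at E16.5 for 18 of 29 of the genes described here (62.1%, against 46.7% of all genes). At P0 it was so for 17 of 27 (63.0%, against 29.9%) and at 13w for 16 of 29 (55.2%, against 54.9%, close to the same share). Higher at every step were 3, 2 and 5 of them, against 29.2%, 19.4% and 14.4% of all genes. Hk1, Gpi1, Pfkp, Eno1, Pkm, Slc16a3, Pdk1, Egln1 and Ankrd37 were lower at every step in all 3 libraries, and Adm was higher at every step in all 3; these are descriptions with no test. At P0 Pkm was at 1391, 1211, 739 and 313 CPM over the 4 ranges, Ldha at 1721, 1514, 944 and 394 CPM, and Slc16a3 at 297, 262, 117 and 31.4 CPM. At E16.5 Slc16a3 was at 497, 455 and 279.9 CPM and at 13w at 99.9, 93.8 and 60.8 CPM over the 3 ranges used. Bnip3 was higher with each range at E16.5, at 340.2, 477 and 643 CPM, and was level at 13w, at 175, 173 and 178 CPM. Vegfa, low in Col9a1-high cells as a whole at P0, was at 8.18, 11.2, 15.2 and 42.1 CPM over the 4 ranges there, at 36.8, 38.0 and 58.1 CPM at 13w, and in the opposite order at E16.5, at 42.1, 26.3 and 22.1 CPM. Ddit4 was at 18.3, 18.1, 21.4 and 70.4 CPM over the ranges at P0, high in the last range alone. In that range Mmp13, a protease gene of the most mature hypertrophic cells, was at 89.4 CPM, against 2.94 CPM in the range with no Col10a1. At 13w, however, Mmp13 was already at 85.4 CPM with no Col10a1, and at 102 and 164 CPM in the other ranges used. Median depth at P0 was 28420 UMIs in the last range and 41098 in the range below. The part of depth in these values was not tested.

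**Figure D4:**
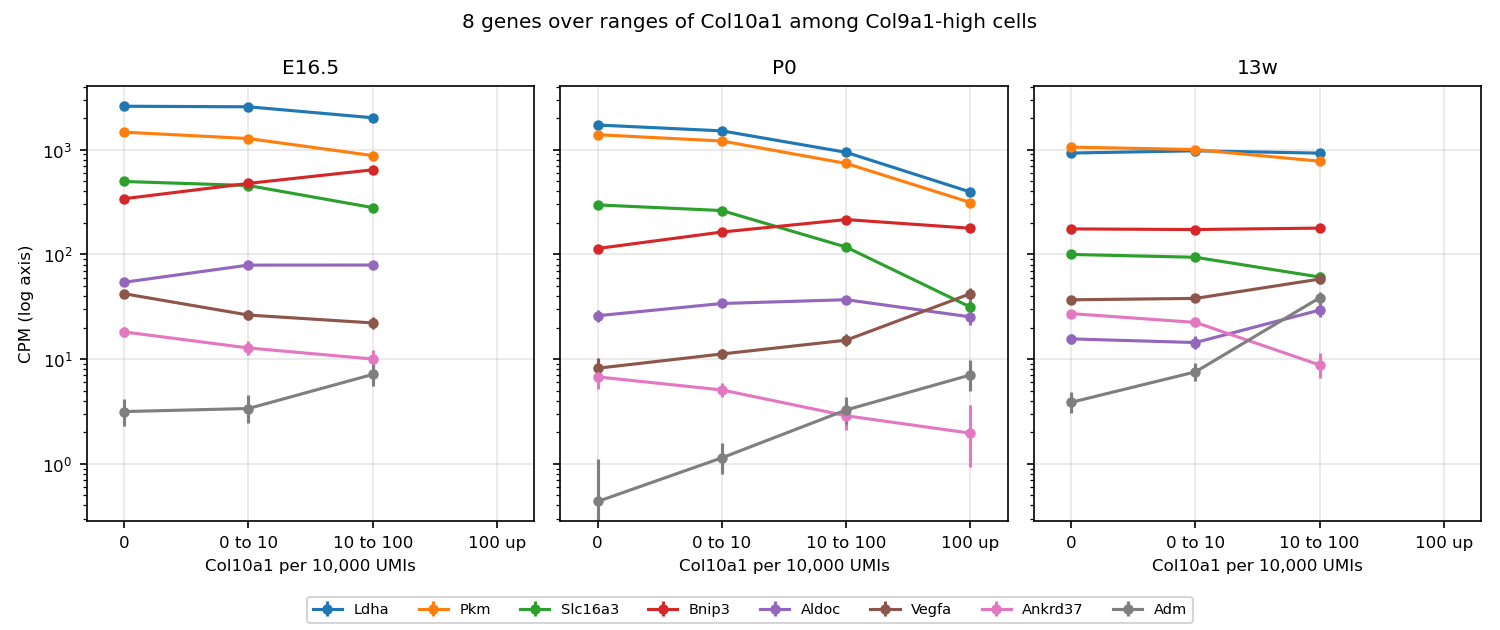
Level of 8 of the genes (CPM, log axis) over ranges of Col10a1 UMIs per 10000 among Col9a1-high cells at E16.5, P0 and 13w; bars are exact 95% Poisson intervals for counting error only, and ranges with fewer than 50 cells are left out. At P0 Slc16a3 runs from 297 to 31.4 CPM while Adm runs from 0.436 to 7.05 CPM.

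Stages have 1 library each, so a difference between them has no replicate check and no test; a gene was called at 2-fold if it reached 10 CPM in the higher of both libraries. A gene under 10 CPM in 1 of them was thus measured only through the library where it was high, and its call is a description. Both comparisons use the P0 library. In all kept cells 1 of 30 measured genes, Car9, was called higher at P0 than at E16.5 (3.33%, against 5.31% of all genes measured) and 4, Slc2a1, Pfkl, Vegfa and Ankrd37, lower (13.3%, against 8.72%). From P0 to 13w 5 of 29 were called higher (17.2%, against 8.46%), Hk1, Pfkp, Pfkfb3, Vegfa and Ankrd37, and 5 lower (17.2%, against 7.93%), Aldoc, Gapdh, Pgk1, Car9 and Car12. In these sums, fewer Col9a1-high cells and less RNA of a gene per cell cannot be told apart, so the classes are given separately below. With TMM scaling higher calls over all genes made up 50.2% in place of 37.9% for P0 against E16.5 and 63.7% in place of 51.7% for 13w against P0, and the median of all genes moved from -0.13 to -0.02 and from -0.13 to 0.03 on the log2 scale.

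From E16.5 to P0 most of the measured genes were lower within each class. Of 30 measured genes 27 were lower at P0 in Col9a1-high Col10a1-low cells, with a median log2 ratio of -0.71 against -0.09 over all genes measured. Past 2-fold were 9 lower (30%, against 6.44% of all genes), namely Slc2a1, Hk2, Pfkl, Pfkp, Pfkfb3, Aldoc, Vegfa, Bnip3 and Ankrd37, and 1 higher, Car9 (3.33%, against 5.72%). In Col10a1-high cells 8 of 29 were lower (27.6%, against 4.03%) and 2 higher, Car9 and Ndrg1 (6.90%, against 6.1%), with a median log2 ratio of -0.63 against -0.01. In Col9a1-low cells 5 of 29 were lower (17.2%, against 7.27%) and 2 higher, again Car9 and Ndrg1 (6.90%, against 5.44%), with a median of -0.45 against -0.15. Slc2a1 and Pfkl were called lower in all 3 classes, Slc2a1 with log2 ratios of -1.11, -1.97 and -1.94 in Col9a1-low, Col10a1-low and Col10a1-high cells. Pkm had much smaller ratios, with -0.01, -0.15 and -0.35. Car9 alone was called higher at P0 in all 3 classes, at 2.29, 15.4 and 4.04 CPM in Col9a1-low, 9.39, 31.8 and 1.97 in Col9a1-high Col10a1-low and 2.08, 10.5 and 0.444 in Col10a1-high cells at E16.5, P0 and 13w. It was under 10 CPM at E16.5 and 13w in each class, so it was measured only through P0 and its calls are descriptions. Summed heat shock genes (8 genes) moved with this comparison, at 4816, 2173 and 1517 CPM in Col9a1-high Col10a1-low cells, and their part in it was not tested.

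From P0 to 13w most of the genes were higher in Col9a1-low cells, while Col9a1-high cells had genes past 2-fold in both directions. In Col9a1-low cells 23 of 27 measured genes were higher at 13w, with a median log2 ratio of 0.55 against -0.05 over all genes, and 7 passed 2-fold (25.9%, against 9.74%), Slc2a1, Hk1, Pfkp, Pfkfb3, Vegfa, Bnip3 and Ankrd37, with 1 lower, Car9 (3.70%, against 7.75%). In Col9a1-high Col10a1-low cells 6 of 29 were higher (20.7%, against 7.62%), Hk1, Pfkp, Pfkfb3, Vegfa, Ddit4 and Ankrd37, and 7 lower (24.1%, against 11.9%), Aldoa, Aldoc, Gapdh, Pgk1, Slc16a3, Car9 and Car12. The median there was -0.29, against -0.29 over all genes. In Col10a1-high cells 5 of 30 were higher (16.7%, against 6.13%), Hk1, Pfkp, Pfkfb3, Vegfa and Adm, and 3 lower (10%, against 17.7%), Pgk1, Car9 and Ndrg1, with a median of 0.08 against -0.42. Some genes called higher were under 10 CPM at P0 and measured only through 13w, so these calls are descriptions. They were Ankrd37 in Col9a1-low and Col9a1-high Col10a1-low cells, Pfkfb3 in Col9a1-low and Col10a1-high cells, and Adm. Genes that encode forms of the same enzyme differed in their stage ratios. Pfkp, a phosphofructokinase subunit, was higher at 13w in all 3 classes, with log2 ratios of 1.80, 1.34 and 1.77, while Pfkl had 0.50, -0.07 and 0.96. Hk1 had 1.69, 1.07 and 1.68, and Hk2 had 0.94, 0.50 and -0.04. Pgk1 was lower at 13w in all 3 classes, with -0.59, -1.50 and -1.33, and in Col9a1-high Col10a1-low cells the ratio was -1.50 (95% counting interval -1.53 to -1.48). Slc16a3 had 0.90 in Col9a1-low but -1.47 in Col9a1-high Col10a1-low cells. Vegfa was higher at 13w in all 3 classes, at 46.3, 27.8 and 57.4 CPM in Col9a1-low, 34.9, 10.5 and 37.3 in Col9a1-high Col10a1-low and 22.5, 21.9 and 60.0 in Col10a1-high cells at E16.5, P0 and 13w. Immediate early genes (12 genes), which respond to tissue handling among other stimuli, moved with this comparison, summing to 2532, 3674 and 5996 CPM in Col9a1-low and 2360.2, 2676 and 4914 in Col9a1-high Col10a1-low cells, and their part in it was not tested.

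**Figure D5:**
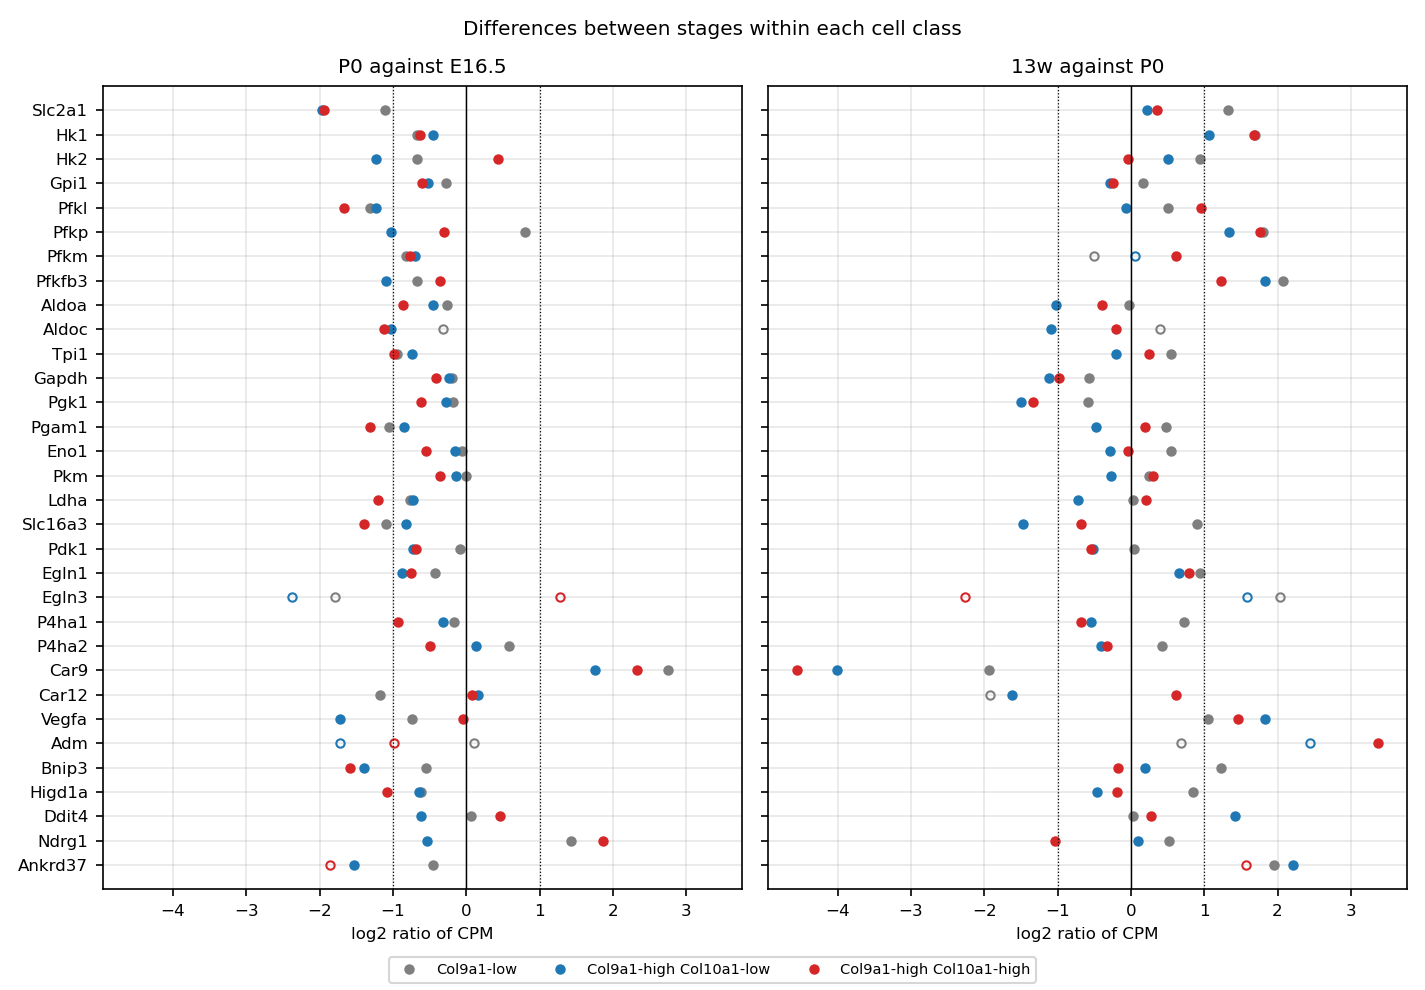
Log2 ratio of CPM between stages for the 32 genes within the 3 cell classes (colours), P0 against E16.5 on the left and 13w against P0 on the right; open circles are genes under 10 CPM in both libraries, and dotted lines mark 2-fold. Car9 lies to the right of 2-fold on the left and far to the left on the right in all 3 classes, and Hk1, Pfkp, Pfkfb3 and Vegfa lie past 2-fold on the right in all 3 classes.

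For sparse genes the share of cells with a UMI was taken after thinning each cell to 3000 UMIs, with exact Clopper-Pearson intervals that cover counting error only. Aldoc was found in 15.2% (95% interval 12.7 to 17.9) of Col9a1-high Col10a1-low cells and 1.0% (95% interval 0.693 to 1.39) of Col9a1-low cells at E16.5, where cells with at least 3 leukocyte markers, which should hold little of it, gave 0.680% (95% interval 0.0172 to 3.73). Without thinning the shares were 64.4%, 5.24% and 4.97%, and the cells had a median of 38424, 14937 and 10183 UMIs. The leukocyte value rests on 1 of 147 thinned cells, and 156 of the 161 leukocyte-marked cells were themselves Col9a1-low. It therefore cannot tell whether the Aldoc share in Col9a1-low cells is background. Car9 at P0 was found in 7.78% (95% interval 6.29 to 9.49) of Col9a1-high Col10a1-low, 3.58% (95% interval 2.85 to 4.45) of Col9a1-low and 2.47% (95% interval 1.32 to 4.18) of Col10a1-high cells, and at 13w in 0.870%, 0.960% and 0.543%, the last from 1 cell. Endothelial-marked cells at P0 gave 0 of 41, with an upper 95% limit of 8.60%, too few cells to set the background below the shares of the classes. Unthinned, the P0 shares were 45.2%, 13.5% and 20.3%. Adm at 13w was found in 8.70% (95% interval 5.05 to 13.7) of Col10a1-high cells, 1.09% (95% interval 0.610 to 1.79) of Col10a1-low and 1.14% (95% interval 0.889 to 1.44) of Col9a1-low cells, against 1.10% (95% interval 0.301 to 2.80) of leukocyte-marked cells and 9.52% (95% interval 1.17 to 30.4) of the 21 endothelial-marked cells. Unthinned, 41.7% of Col10a1-high, 8.58% of Col10a1-low and 3.76% of Col9a1-low cells held an Adm UMI, and 3.18% of leukocyte-marked cells, whose median depth was 8638 UMIs. Vegfa at P0 was found in 8.12% (95% interval 7.01 to 9.34) of Col9a1-low, 3.06% (95% interval 2.14 to 4.23) of Col9a1-high Col10a1-low and 6.07% (95% interval 4.19 to 8.46) of Col10a1-high cells, lowest in the class with the lowest CPM.

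Other genes of the same pathways were taken from lists. Of 37 further hypoxia-response genes 27 were tested in Col9a1-high Col10a1-low against Col9a1-low cells, with a median log2 difference of 0.62. Of the 27, 8 were called higher and 3 lower, where 6.35% of all genes tested were called higher and 15.8% lower. The largest were Stc2, a stanniocalcin gene, with 3.05 ± 0.22 (edgeR adjusted p = 0.00732), Ak4, a mitochondrial adenylate kinase, with 2.73 ± 0.53 (edgeR adjusted p = 0.0317), and Vldlr, a lipoprotein receptor, with 2.38 ± 0.38 (edgeR adjusted p = 0.0231). Between Col10a1-high and Col10a1-low cells 2 of 27 were called higher, Cited2 with 1.90 ± 0.24 and Insig2 with 1.06 ± 0.24, and 1 lower, Vldlr with -0.98 ± 0.19 (edgeR adjusted p = 0.00971, 0.0415 and 0.0305). Over all genes tested there, 3.44% were called higher and 6.84% lower. Cited2 encodes a protein that restrains HIF by taking its coactivator. Of the 22 citric acid cycle genes, all tested, 0 were called higher and 0 lower in Col9a1-high Col10a1-low against Col9a1-low cells, with a median of -0.14, the median of all genes being -0.14. Without adjustment edgeR gave 0 higher and 2 lower at p under 0.05, and DESeq2 with adjustment 0 and 2. Against Col9a1-low cells the Col10a1-high cells had 2 of them lower, Fh1 with -1.11 ± 0.20 and Idh3b with -0.66 ± 0.19 (edgeR adjusted p = 0.0134 and 0.0489), where 23.4% of all genes were called lower. Without adjustment edgeR gave 9 of the 22 lower at p under 0.05, and DESeq2 with adjustment 8. In the glycogen list Pgm1, a phosphoglucomutase gene, was called higher in Col9a1-high Col10a1-low cells (1.86 ± 0.19, edgeR adjusted p = 0.0129), 1 of 7 tested. Against Col9a1-low cells, Col10a1-high cells had 3 of 7 higher and 1 lower, where 7.49% of all genes tested were called higher and 23.4% lower. Ugp2, which makes the glucose donor for glycogen, had 1.86 ± 0.54 (edgeR adjusted p = 0.0487). Of 8 tested HIF subunit and regulator genes 0 were called in any of the 3 class tests by edgeR, with 1, 1 and 0 lower and 0 higher at an unadjusted p under 0.05, and DESeq2 called 0, 1 and 0. Of 6 further glycolysis genes, 5 pentose phosphate genes and 2 gluconeogenesis genes tested, edgeR called 0 in Col9a1-high Col10a1-low against Col9a1-low cells; at an unadjusted p under 0.05, 2, 1 and 0 were higher, and DESeq2 called 1, 1 and 0. From P0 to 13w 13 of 27 further hypoxia-response genes were past 2-fold higher in Col9a1-low cells and 1 lower, against 9.74% and 7.75% of all genes measured. In Col9a1-high Col10a1-low cells 9 of 29 were higher and 3 lower, against 7.62% and 11.9%. Hif1a, the alpha subunit gene, was at 111 CPM at P0 and 438 CPM at 13w in Col9a1-high Col10a1-low cells, and at 134 and 436 CPM in Col10a1-high cells. Ldhb, the lactate dehydrogenase subunit that favours pyruvate, was at 90.6 CPM at P0 and 11.4 CPM at 13w in Col9a1-high Col10a1-low cells, and at 73.6 and 16.5 CPM in Col9a1-low cells.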

How the data were processed

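The authors deposited 1 matrix of raw UMI counts per stage, already restricted to called cells. The file headers name Cell Ranger 6.1.2, and GRCm39 is named in the submitters' processing notes. The 32 genes and all lists were chosen with earlier results of these data known. Cells of 500 or more genes and no more than 10% mitochondrial UMIs were kept, and counts were summed per library and class. The libraries held 100546288, 94002214 and 113130140 UMIs in kept cells. Doublets were not removed, since Scrublet's automatic threshold marked at most 0.110% of cells; leaving out the highest scores (0.8% per 1000 cells) was an alternative. Classes were tested with edgeR 4.0.16 in R 4.3.3 (quasi-likelihood, total-count scaling, library block, a mean of at least 10 CPM over 6 sums, Benjamini-Hochberg at 0.05; SE is the log2 difference over the root of F). The block pairs classes cut from the same library. On simulated data for Col9a1-high Col10a1-low against Col9a1-low (7824 genes), 100 of 100 genes changed 4-fold and 67 of 100 changed 2-fold were recovered. At 2-fold, 60 of 100 were recovered for Col10a1-high against Col9a1-low and 51 of 100 for Col10a1-high against Col10a1-low. The simulated fold was the same in each library, with a fixed dispersion. Recovery of differences that change with age, as many here do, was not simulated. Stages have 1 library each and no test. Poisson, binomial and Clopper-Pearson intervals (95%) cover counting error only. All 32 genes are named; from the other lists, genes come from the up to 3 called with the largest log2 difference per comparison. Alternatives were TMM and median-of-ratios scaling, DESeq2 1.42.0, no block, each library left out, other class limits, gene and mitochondrial limits, thinning to 3000 UMIs, filters of 30 CPM or none, 1.5-fold calls, and sums without doublets, cycling or non-skeletal cells. Promoter sequences are RefSeq's, on GRCm38.p6; coordinates on the build of the counts were not used here.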

Additional observations from a re-analysis of the deposited data

Results flagged for a closer look

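Differences of at least 1.5-fold in opposite directions in a pair of libraries or classes are listed here as log2 ratios, and none of the differences between ratios was tested. Pfkp in Col9a1-high Col10a1-low against Col9a1-low cells had 1.69 at E16.5 and -0.59 at 13w. Slc16a3 in Col10a1-high against Col9a1-low cells had 1.24, 0.94 and -0.63 in the E16.5, P0 and 13w libraries. Between Col10a1-high and Col10a1-low cells, Car12 had -1.31, -1.40 and 0.83 in the same order of libraries, and Vegfa had -0.63, 1.06 and 0.68. From E16.5 to P0, Pfkp had 0.80 in Col9a1-low and -1.02 in Col9a1-high Col10a1-low cells. From P0 to 13w, Slc16a3 had 0.90 in Col9a1-low, -1.47 in Col9a1-high Col10a1-low and -0.68 in Col10a1-high cells. Over the same interval P4ha1 had 0.72 in Col9a1-low and -0.68 in Col10a1-high cells, and Car12 had -1.62 in Col9a1-high Col10a1-low and 0.61 in Col10a1-high cells.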

How the results depend on the processing

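Counts of the 32 genes called higher or lower were recomputed under each alternative; 111 of the recomputed counts stayed within 1.5 times, 47 did not, and no called value changed sign. For P0 against E16.5 in all kept cells the lower count was 2 with TMM scaling, 1 with median-of-ratios scaling, 2 after thinning and 9 at 1.5-fold, and the higher count was 0 at a minimum of 30 CPM. For 13w against P0 the lower count was 3 at 30 CPM and 3 after thinning, and the higher count 8 at 1.5-fold. For Col9a1-high Col10a1-low against Col9a1-low, 21 were higher and 1 lower with no filter, and 21 and 2 with DESeq2. Leaving out 1 library gave 0 to 24 higher and 0 to 1 lower. For Col10a1-high against Col9a1-low, 12 were higher with TMM, 13 with median-of-ratios, 10 (and 2 lower) with no filter, and 11 (and 3 lower) with DESeq2. The lower count was 2 with a Col10a1 limit of 5 and 2 without cycling cells, and leaving out 1 library gave 2 to 15 higher and 1 to 2 lower. For Col10a1-high against Col10a1-low, the higher count was 0 after thinning, at 30 CPM (0) and with a Col10a1 limit of 5 (0), where Adm was under the filter. The lower count was 2 with TMM, 2 with median-of-ratios, 2 at 30 CPM, 13 with no filter, 7 with a Col9a1 limit of 6 and 10 with DESeq2, and leaving out 1 library gave 0 to 2 higher and 0 to 10 lower. The cause of these moves was not tested, except that a left-out library leaves 1 residual degree of freedom.

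Without the replicate block, that is with the pairing of classes within a library ignored, 0 genes were called higher for Col9a1-high Col10a1-low against Col9a1-low, 1 higher and 0 lower for Col10a1-high against Col9a1-low, and 0 higher and 0 lower between the Col9a1-high classes. Single libraries and few UMIs limit what can be said of Egln3, Pfkm, Adm and Car9, which are under 10 CPM in most sums.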
